A study of Mus musculus with 6 samples.

Results

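Lysosome genes were taken as every gene whose KEGG pathway entry in the deposited annotation contains the term Lysosome, which gave 122 of the 19423 genes in the table. Their RNA was measured by sequencing ovaries of balb/c-nude mice, an athymic strain that accepts grafted tumor cells, at day 80. The 3 control libraries came from mice labelled Control, with no injection named. The 3 tumor libraries came from mice given cancer cells under the skin, named MBA-MD-231 in the cell line label, with another last number in each treatment label. The labels state neither the age of the mice, the estrous stage, any pooling of animals nor the event from which day 80 is counted. Separate animals are assumed because the libraries are listed separately, so p-values measure the spread between these libraries. The question is how expression in the ovary differs when the mouse carries a breast tumor graft elsewhere.

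Lysosomes are acidic compartments in which proteases, glycosidases, sulfatases, lipases and nucleases break down material delivered by endocytosis and autophagy. A proton pump, the V-ATPase, acidifies the lumen, membrane proteins line the boundary, and mannose 6-phosphate receptors with clathrin adaptors bring new enzymes from the Golgi. The transcription factor TFEB and its relatives act on many lysosome genes through a promoter element built around the letters CACGTG. In the ovary, lysosomes serve macrophages that clear dying cells and steroid-producing cells that take up lipoprotein cholesterol.

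Libraries held between 18278614 and 19238900 estimated counts. Ovarian markers were present throughout, with Foxl2 of granulosa cells between 156 and 232 CPM (counts scaled to library size with TMM factors) and Zp3 of oocytes between 60.2 and 95.6 CPM. Libraries of a group were not alike. On the leading principal component, with 52.1% of the variance, tumor replicate 1 had a score of -34.6 beside -42.8 and -42.1 for control replicates 1 and 2, whereas tumor replicates 2 and 3 scored 49.6 and 75.1. Control replicate 3, at -5.23, lay apart from the other controls.

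Where lysosome genes changed in tumor-bearing mice, nearly all of them fell. Of the 122 members, 116 passed the filter on low counts. Among these, 17 fell, 1 rose and 98 did not reach an adjusted p under 0.05 in edgeR's quasi-likelihood test. Over all 15787 tested genes 7.71% were called, 3.91% as lower and 3.8% as higher, while 14.7% of the tested members were called lower. The median log2 fold change of tumor over control was -0.29 over the tested members and -0.02 over all tested genes, and 78.4% of the members lay below 0, against 51.5% of all genes. In 48 members every tumor library lay below every control library, and in 6 every one lay above; together this is 46.6% of the tested members, where 38.1% of all genes had groups that did not overlap, 18.4% lower and 19.8% higher. At an unadjusted p under 0.05 there were 52 members, where 31% of all genes passed. By q under 0.05 in the authors' deposited table, 36 members differed and 34 of them were lower, where 14.7% of genes with a q did and 7.3% were lower. The 6 members removed by the filter, Psapl1, Lamp3, Dnase2b, Ctsg, Ctsj and Ctsm, stayed at or below 0.378 CPM in each library.

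The number of calls rested on single libraries and on gene length. With control replicate 1 or tumor replicate 3 left out no member passed, and no gene of the table did either. In these fits 36 and 42 members had an unadjusted p under 0.05. The share of all genes at that level was not counted for these fits, and it was 31% with every library. Leaving out control replicate 3 gave 2 calls and tumor replicate 2 gave 1, whereas leaving out control replicate 2 gave 33 and tumor replicate 1 gave 24. Over all genes the same fits called 5, 3, 2274 and 2605, against 1217 with every library. A correction of each library for the trend of its counts with gene length left 2 calls, Gm2a and Lgmn, where 0.798% of all genes passed and 0.418% were lower; it moved the members' median to -0.16 and that of all genes to 0.06. DESeq2's test called 37 members lower and 3 higher, where 19.1% of genes were called and 9.4% were lower. In bulk tissue, fewer cells of a type and less RNA per cell cannot be told apart.

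**Figure D1:**
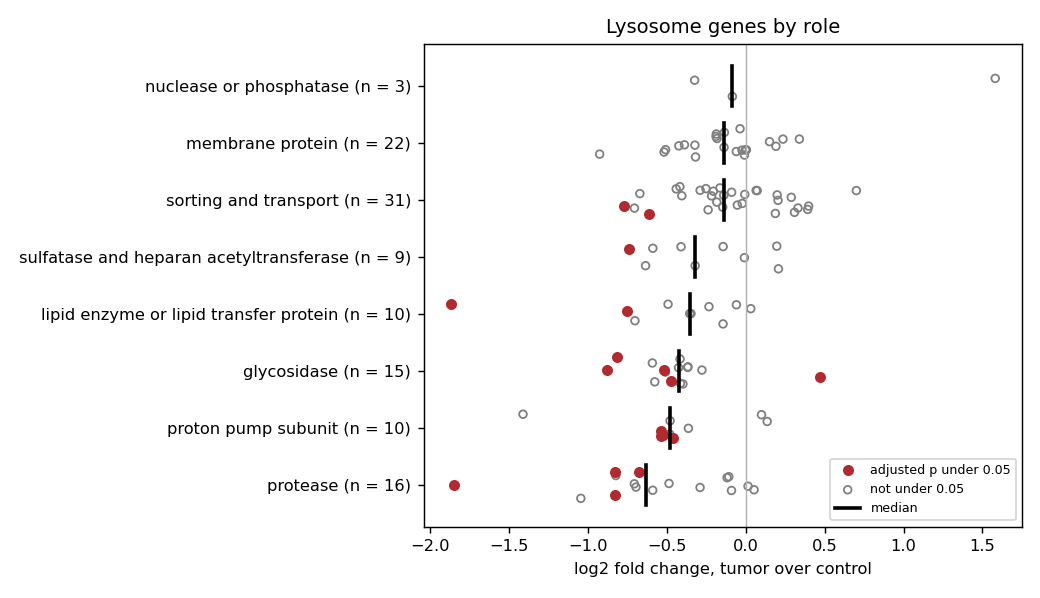
Log2 fold change of tumor over control for the 116 tested lysosome genes, one point per gene, in rows by role with the number tested; filled points had an edgeR adjusted p under 0.05 and black bars are medians. Medians lie between -0.63 for proteases and -0.08 for nucleases and phosphatases, and Gm2a and Lgmn are the filled points farthest to the left.

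The members made up 1.42% ± 0.03 (SD, n = 3) of all TPM (transcript abundance, scaled by length and library) in control and 1.18% ± 0.03 (SD, n = 3) in tumor, without overlap. Such a sum weighs abundant members most. Proteases held a mean of 0.428% in control and 0.323% in tumor, and lipid enzymes and transfer proteins 0.236% and 0.165%. Sorting genes held 0.171% and 0.169%. Only nucleases and phosphatases had a higher mean in tumor, with 0.0067% in control and 0.0103% in tumor. FPKM divides counts by library size and gene length, without the correction above for each library's trend with length. On this scale Ctsb and Psap were the most abundant, with control means of 740.3 and 699 FPKM and tumor means of 429 and 434. Ctsd came next, with means of 375 and 322 FPKM, followed by Ctsl with 283 and 305. Levels spanned a wide range: 14 members had a mean of at least 100 FPKM and 8 a mean below 1.

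**Figure D2:**
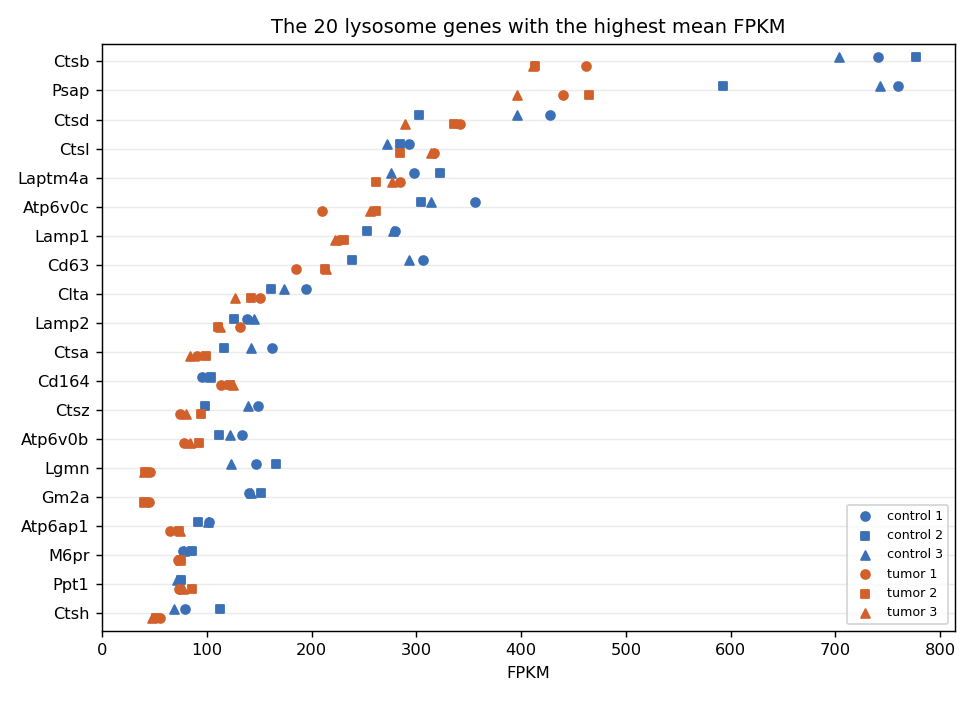
FPKM in each library for the lysosome genes with the highest mean FPKM, from the highest at the top; colors are groups and marker shapes are replicates. The tumor points of Ctsb and Psap lie to the left of all their control points, while the groups of Ctsl are close to each other.

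Proteases had the lowest median of the roles. Of 16 tested, 4 fell, 0 rose and 12 stayed uncalled, with a median log2 fold change of -0.63. Those that fell were 25% of the tested, where 3.91% of all genes fell. Groups did not overlap for 37.5% of the proteases, all of them lower in tumor. Among all genes 38.1% had such groups, 18.4% lower. Lgmn encodes legumain, an asparaginyl endopeptidase that also processes cathepsins (NCBI gene 19141, chr12:102394082-102439813 in GRCm38). The control libraries held 299, 326 and 247 CPM of Lgmn in replicate order, and the tumor libraries 85.2, 78.2 and 78.3. The groups lay far apart, with the lowest control of Lgmn at 2.90 times the highest tumor library. The log2 fold change of Lgmn was -1.85 ± 0.13 (SE), or 3.61-fold lower, at an edgeR adjusted p of 0.00961. Lgmn passed in 8 of 12 alternatives, the length correction among them (-1.67, adjusted p of 0.00939).

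Ctsb encodes the cysteine protease cathepsin B. Control libraries held 1344, 1380.1 and 1242 CPM of Ctsb and tumor libraries 790.0, 714 and 733. All 3 tumor values of Ctsb were well below the controls, for a log2 fold change of -0.83 ± 0.10 (SE) and an edgeR adjusted p of 0.0277. Ctsh, for the aminopeptidase cathepsin H, averaged 139.7 ± 34.3 CPM in control (SD, n = 3) and 78.8 ± 3.98 in tumor (SD, n = 3). Ctsa, whose product protects lysosomal galactosidase and sialidase, averaged 317 ± 57.8 CPM and 198 ± 14.1 CPM in the same order. Both fell, at edgeR adjusted p of 0.0457 and 0.0480, with a wider spread among controls than among tumor libraries.

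Several well-known cathepsins were not called. Ctsl, for cathepsin L, held 498, 468 and 457 CPM in control and 495, 459 and 521 in tumor libraries, a log2 difference of 0.05 ± 0.10 (SE) at an edgeR adjusted p of 0.749. Ctsd, for the aspartic protease cathepsin D, had -0.29 ± 0.16 on that scale, at 0.264, with overlapping groups. Ctsk and Ctss, for cathepsins K and S of osteoclasts and antigen-presenting cells, ranged from 12.2 to 19.56 and from 27.96 to 58.5 CPM. Their groups overlapped and the sign of the difference changed with the setting.

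Glycosidases, which trim sugars from glycoproteins and glycolipids, fell with 1 exception among those called. Of 15 tested, 4 fell, 1 rose and 10 were not called, with a median log2 fold change of -0.43. The calls were 33.3% of the tested and 26.7% were lower, where 7.71% of all genes were called and 3.91% were lower. Glb1 encodes lysosomal beta-galactosidase, and its libraries held 114, 80.2 and 107 CPM in control against 52.4, 54.1 and 57.7 in tumor. Control replicate 2 was the control nearest to the tumor group, which was tight. The log2 fold change of Glb1 was -0.88 ± 0.14 (SE), at an edgeR adjusted p of 0.0366. Hexa, for the alpha chain of beta-hexosaminidase, had -0.52 ± 0.11 (SE) at 0.0451, and Aga, for aspartylglucosaminidase, -0.47 ± 0.09 at 0.0385.

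Galc, for galactosylceramidase, was the member that rose. Galc libraries held 56.1, 59.1 and 55.1 CPM in control against 82.3, 77.8 and 75.7 in tumor. The spread within each group was small beside the gap. Its log2 fold change was 0.47 ± 0.08 (SE), at an edgeR adjusted p of 0.0366, and the length correction gave 0.51 at 0.0650. Gusb, for beta-glucuronidase, was not called, with -0.41 ± 0.20 (SE) at an edgeR adjusted p of 0.212 and overlapping groups.

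Among 9 tested genes of sulfatases, their activation and heparan acetylation, edgeR called only Arsa. This was 11.1% of the tested, where 7.71% of all genes were called, 3.91% as lower. Arsa encodes arylsulfatase A, which acts on sulfatide, and held 49.2, 34.1 and 46.3 CPM in control against 26.7, 27.1 and 23.99 in tumor libraries. It fell, with a log2 fold change of -0.74 ± 0.16 (SE) at an edgeR adjusted p of 0.0451. Arsb, for arylsulfatase B, had -0.63 ± 0.16 at an edgeR adjusted p of 0.0594 and an authors' q of 0.00637.

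Lipid enzymes and lipid transfer proteins held the member with the smallest p. Of 10 tested, 2 fell, 0 rose and 8 were not called, with a median log2 fold change of -0.35. Those that fell were 20% of the tested, where 3.91% of all genes fell. Gm2a encodes the GM2 activator, which presents ganglioside GM2 to hexosaminidase (NCBI gene 14667, chr11:55097985-55113029 in GRCm38). Control libraries held 615, 643 and 614 CPM of Gm2a and tumor libraries 180.3, 163 and 169. Within each group the values were close, and the lowest control of Gm2a was 3.40 times the highest tumor library. The log2 fold change of Gm2a was -1.87 ± 0.09 (SE), or 3.65-fold lower, at an edgeR adjusted p of 0.00554. It passed in 9 of 12 alternatives, with values between -1.91 and -1.78, and the length correction gave an adjusted p of 0.00936.

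Psap encodes prosaposin, the precursor of saposins that assist sphingolipid hydrolases. Psap libraries held 2005, 1517 and 1930.5 CPM in control against 1063, 1157 and 1015 in tumor, again with control replicate 2 nearest to the tumor group. It fell, with a log2 fold change of -0.75 ± 0.14 (SE), at an edgeR adjusted p of 0.0386. EdgeR called none of the genes named here that handle cholesterol. Lipa, for acid lipase, had -0.70 ± 0.19 at an edgeR adjusted p of 0.0718. In the authors' table it was lower, at a q of 0.0109. Npc2, which passes cholesterol to the product of Npc1, had -0.35 ± 0.12, with an authors' q of 0.0553 and an edgeR adjusted p of 0.104. For Lipa and Npc2 every tumor library lay below every control. Npc1 averaged 105 ± 4.46 CPM in control (SD, n = 3) and 105 ± 8.32 in tumor (SD, n = 3), with a sign that changed with the setting. Smpd1, for acid sphingomyelinase, had -0.49 ± 0.15 at an edgeR adjusted p of 0.0831 and an authors' q of 0.0409.

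**Figure D3:**
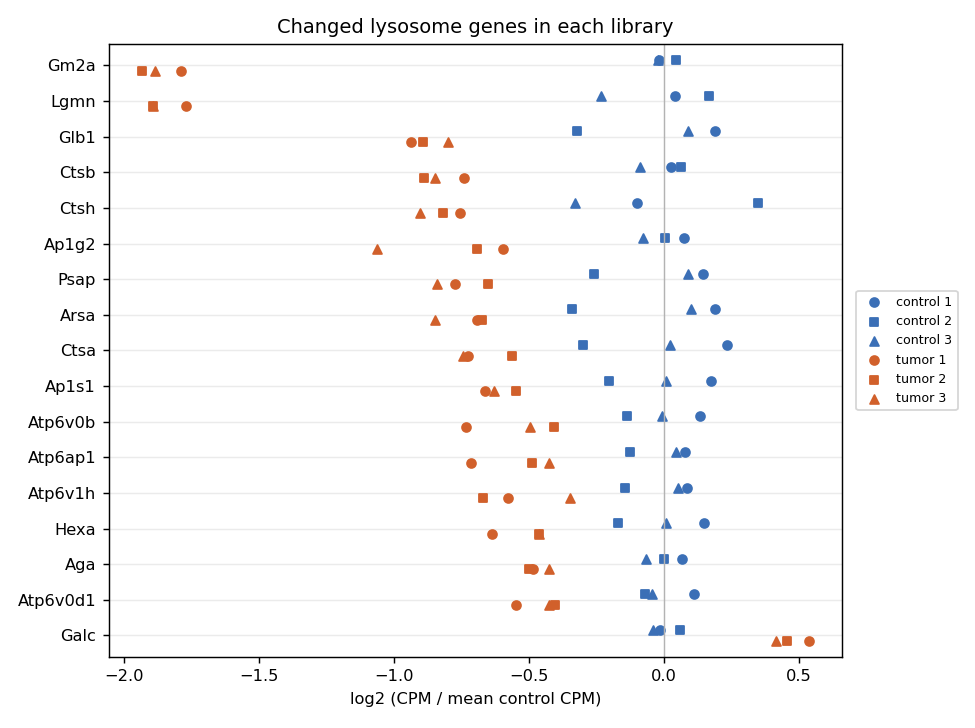
Changed lysosome genes, 17 of the 18, in each library, as log2 of CPM over the mean control CPM, sorted by fold change; colors are groups and marker shapes are replicates. Gm2a and Lgmn lie far below the rest in the tumor libraries, Galc alone lies above 0 in the tumor libraries, and over all 18 control replicate 2 is the lowest control for 11 of the 17 genes that fell.

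Of 22 membrane proteins tested, 0 passed edgeR's test, 6 had an unadjusted p under 0.05 and DESeq2 called 4 lower. The 6 were 27.3% of the tested, where 31% of all genes passed. Over all genes edgeR called 7.71%, and DESeq2 called 9.4% lower. Groups did not overlap for 31.8% of the membrane proteins, 27.3% lower, where 38.1% of all genes had such groups, 18.4% lower. The median log2 fold change was -0.14. Lamp1, a heavily glycosylated coat protein of the lysosome, held 633, 554 and 619 CPM in control against 468, 493 and 489 in tumor libraries. Its groups did not overlap, but -0.32 ± 0.10 (SE) on the log2 scale gave an edgeR adjusted p of 0.0845. Lamp2, which also serves chaperone-mediated autophagy, had -0.18 ± 0.10 at 0.273, with overlap. The tetraspanin gene Cd63 had -0.52 ± 0.14 at 0.0680, and Mcoln1, for the calcium channel mucolipin 1, -0.51 ± 0.16 at 0.0892. In the authors' table Lamp1 and Cd63 were lower, at q of 0.00886 and 0.0110, while Mcoln1 had a q of 0.05003. Cd68, a macrophage sialomucin, held 47.9, 31.6 and 38.0 CPM in control against 31.0, 36.7 and 22.0 in tumor libraries, with overlap and an edgeR adjusted p of 0.300.

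Proton pump subunits that were called fell by similar amounts. Of the 10 in the KEGG term, 4 fell, 0 rose and 6 were not called, with a median log2 fold change of -0.48. Those that fell were 40% of the 10, where 3.91% of all genes fell. Atp6v0d1, of the membrane sector V0, held 109, 96.0 and 97.5 CPM in control against 68.8, 76.1 and 74.8 in tumor libraries. No library crossed between the groups, for -0.46 ± 0.09 (SE) at an edgeR adjusted p of 0.0397. The accessory subunit Atp6ap1 had -0.54 ± 0.11, Atp6v0b of the proton-carrying ring -0.54 ± 0.12, and Atp6v1h of the ATP-splitting sector V1 -0.53 ± 0.12. Tumor replicate 1 was the lowest library for Atp6v0d1, Atp6ap1 and Atp6v0b, and tumor replicate 2 for Atp6v1h.

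The ring gene Atp6v0c, the most abundant pump member by FPKM, had -0.48 ± 0.13 (SE), with an authors' q of 0.0128 and an edgeR adjusted p of 0.0725. Tcirg1, for an osteoclast a subunit, had -0.36 ± 0.13 at 0.124. Atp6v0d2, for a d subunit of osteoclasts and macrophages, stayed between 2.998 and 7.10 CPM with overlap and a sign that changed with the setting. With the length correction the subunits' median was -0.24 and none passed: Atp6v0d1 had -0.23 at 0.349 and Atp6v0b -0.23 at 0.453.

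A further 13 tested pump genes lie outside the KEGG term, of which 4 fell, 0 rose and 9 were not called, with a median of -0.36. Those that fell were 30.8% of the tested, where 3.91% of all genes fell. The small V0 subunits Atp6v0e2 and Atp6v0e had -1.16 ± 0.21 and -0.63 ± 0.09 (SE). Atp6v1e1 of the V1 stalk had -0.60 ± 0.09, and Atp6v1f, named after its values were seen, -0.53 ± 0.11. None of these passed with the length correction.

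**Figure D4:**
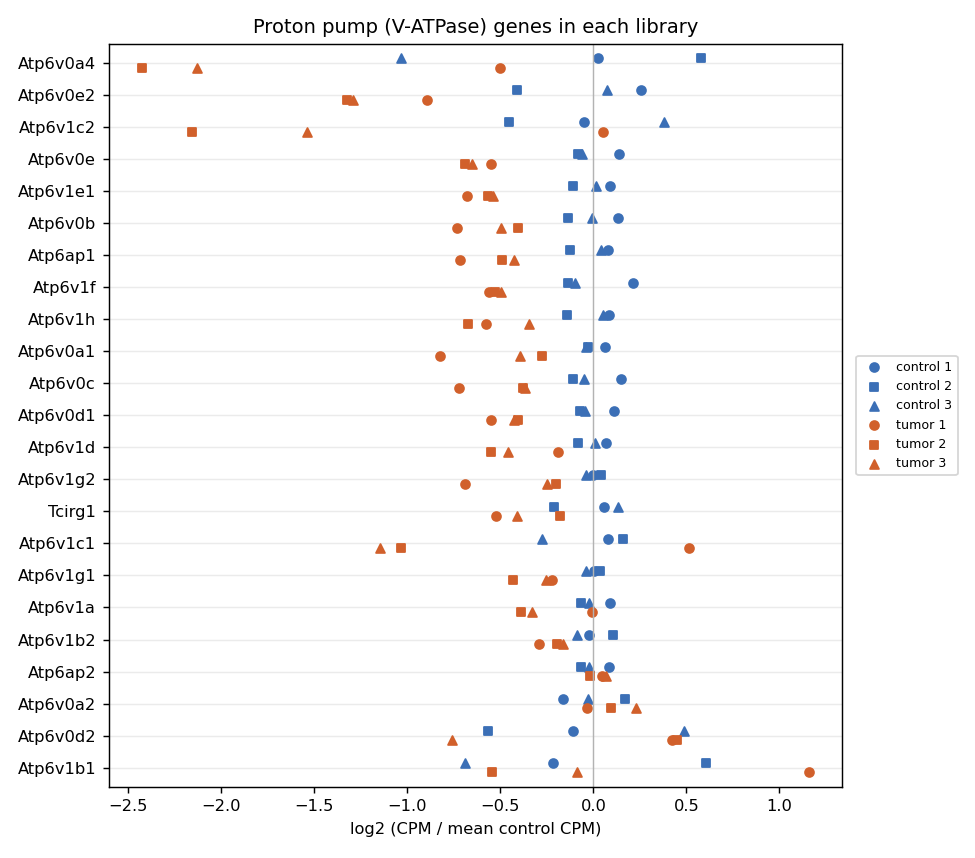
The tested proton pump genes, 10 of the KEGG term and 13 outside it, in each library as log2 of CPM over the mean control CPM; colors are groups and marker shapes are replicates. Tumor libraries lie to the left of the control libraries for most subunits, and Atp6v0a4, Atp6v1c2, Atp6v0d2, Atp6v1b1 and Atp6v1c1 spread the most within groups.

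Sorting genes had a median log2 fold change of -0.14, with 2 of 31 lower, 0 higher and 29 not called. The calls were 6.45% of those tested, where 7.71% of all genes were called, 3.91% as lower. Groups did not overlap for 45.2% of the sorting genes, where 38.1% of all genes had such groups. In either direction both shares are near the background. For 35.5% of the sorting genes every tumor library lay below every control, where 18.4% of all genes did so. A log2 fold change below 0 was found for 64.5%, against 51.5% of all genes. Ap1g2 encodes a gamma subunit of the clathrin adaptor AP-1 and held 40.2, 38.3 and 36.2 CPM in control against 25.3, 23.7 and 18.3 in tumor libraries. Its groups did not overlap and it fell, with -0.77 ± 0.14 (SE) on the log2 scale at an edgeR adjusted p of 0.0385, and so did Ap1s1, for a sigma subunit, with -0.61 ± 0.11 at 0.0386. Ap1g1, for the other gamma subunit and named after its values were seen, had 0.33 ± 0.10 at 0.0869, with every tumor library above every control. The mannose 6-phosphate receptor genes M6pr and Igf2r had -0.18 ± 0.08 and -0.01 ± 0.12, at 0.192 and 0.981, and the sign of Igf2r changed with the setting. Nagpa, whose enzyme uncovers the mannose 6-phosphate tag, had -0.67 ± 0.20, with an authors' q of 0.0382 and an edgeR adjusted p of 0.0848. Of 3 nucleases and phosphatases none passed edgeR's test, 1 had an unadjusted p under 0.05 and DESeq2 called 1 higher. At that unadjusted p 31% of all genes passed, and DESeq2 called 19.1% of all genes.

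Other lysosome genes outside the KEGG term, pump genes included, had 7 lower, 1 higher and 30 not called among 38 tested, with a median of -0.27. The calls were 21.1% of those tested, where 7.71% of all genes were called. Tpcn2, for a lysosomal cation channel, averaged 23.7 ± 0.849 CPM in control (SD, n = 3) and 13.6 ± 1.27 in tumor (SD, n = 3), at an edgeR adjusted p of 0.0355. Tmem175 and Lamtor2, named after their values were seen, complete those that fell. Gpnmb, a glycoprotein of lipid-laden macrophages, held 23.7, 10.6 and 27.02 CPM in control against 149, 229 and 62.5 in tumor libraries, and rose by 2.85 ± 0.58 (SE) on the log2 scale at 0.0459. Every tumor library was above the controls, over a wide spread. Grn, for progranulin, had -0.67 ± 0.16 at 0.0564. Of the transcription factor genes, Tfeb had -0.25 ± 0.14 at 0.291 and Tfe3 -0.30 ± 0.10 at 0.109. Mitf held 10.2, 15.4 and 12.3 CPM in control against 25.6, 18.3 and 17.99 in tumor libraries, without overlap, at an edgeR adjusted p of 0.0883.

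Promoters are shown because the letters of the TFEB element are common among the members. RefSeq promoter windows of GRCm38.p6, from 250 bases before to 50 after a gene's start, matched 96 of the 122 members. The letters GTCACGTG, on either strand, stood in a window of 20 of the 96, or 20.8%, where 4.26% of 12502 tested genes with a window and 2.25% of all 32851 windows held them. The shorter CACGTG, contained in the others, was found for 24 members, or 25.0%, against 11.0% of tested genes, and TCACGTGA, which overlaps GTCACGTG, for 10, or 10.4%, against 1.90%. All 20 members with GTCACGTG were tested: 6 fell and none rose, with a median log2 fold change of -0.39. Of 70 tested members with a window but without these letters, 6 fell and 1 rose, with a median of -0.24. The difference between these medians was not tested.

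The 100 bases from 80 before the start to 20 from it on are printed for the 6 members with GTCACGTG that fell, for Igf2r, which holds the letters and was not called, and for Gm2a, which had the smallest p and no match. Capitals mark GTCACGTG or, where the opposite strand carries it, CACGTGAC, and the copies of Igf2r at its second site overlap. Each sequence reads 5′ to 3′ on the gene's strand. Lgmn and Ctsa have 2 listed starts each, and the window with the match is shown.
Lgmn (chr12:102439073-102439172, minus strand): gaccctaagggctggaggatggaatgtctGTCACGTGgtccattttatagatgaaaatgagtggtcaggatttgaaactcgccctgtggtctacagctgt
Glb1 (chr9:114400998-114401097, plus strand): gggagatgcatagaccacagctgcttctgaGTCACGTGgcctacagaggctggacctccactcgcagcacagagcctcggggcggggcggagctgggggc
Ctsa (chr2:164833693-164833792, plus strand): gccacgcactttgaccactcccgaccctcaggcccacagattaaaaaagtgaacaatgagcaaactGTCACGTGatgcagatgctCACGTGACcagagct
Arsa (chr15:89477405-89477504, minus strand): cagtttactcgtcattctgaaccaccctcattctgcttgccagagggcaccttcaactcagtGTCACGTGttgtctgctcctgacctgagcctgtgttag
Atp6v0b (chr4:117887310-117887409, minus strand): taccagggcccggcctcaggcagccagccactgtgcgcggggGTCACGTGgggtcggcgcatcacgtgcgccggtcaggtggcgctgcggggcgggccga
Atp6v0d1 (chr8:105566045-105566144, minus strand): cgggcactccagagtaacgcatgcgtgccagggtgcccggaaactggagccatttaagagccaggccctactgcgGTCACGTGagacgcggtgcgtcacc
Igf2r (chr17:12769687-12769786, minus strand): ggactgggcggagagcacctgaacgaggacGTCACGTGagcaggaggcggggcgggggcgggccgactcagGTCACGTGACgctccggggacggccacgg
Gm2a (chr11:55097905-55098004, plus strand): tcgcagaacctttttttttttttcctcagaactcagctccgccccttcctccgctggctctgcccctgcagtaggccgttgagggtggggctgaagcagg
Among the 6 that fell, matches begin between position -51 from the start (Lgmn) and position 6 (Ctsa). A match describes letters and is no measurement of binding.

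Of 7 members with a within-group SD of at least 0.8 on the log2 CPM scale, all but Acp5 were named after their values were seen. Napsa, for the aspartic protease napsin A, held 11.0, 7.01 and 0.754 CPM in control against 9.46, 1.44 and 0.600 in tumor libraries. Ctse, Ap1m2, Ap3b2 and Atp6v0a4 also had their highest values in control replicates 1 and 2 and tumor replicate 1. The oviduct gene Ovgp1 was high in the same libraries, at 1821, 1627 and 309 CPM in control against 1290.3, 70.1 and 16.4 in tumor. Ap1s2 was high only in control replicate 2 and tumor replicate 1, at 70.7 and 82.7 CPM, with 34.3 and 34.1 CPM in control replicates 1 and 3. None of 6 oviduct markers passed edgeR's test, 0 had an unadjusted p under 0.05 and DESeq2 called 0, and their sum ranged from 435 to 2073 CPM in control and from 30.4 to 1828 in tumor.

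Acp5, for tartrate-resistant acid phosphatase, held 9.30, 11.7 and 9.42 CPM in control against 57.1, 8.85 and 25.0 in tumor libraries. Its edgeR adjusted p was 0.159, and its authors' q was 0.0328. Tumor replicates 1 and 3 were high for Acp5 and for the fat gene Adipoq, which held 36.4, 48.2 and 38.7 CPM in control against 529, 54.8 and 228 in tumor. The adipocyte list summed to between 434 and 614 CPM in control and between 623 and 7161 in tumor. EdgeR called none of its 7 tested genes, 6 had an unadjusted p under 0.05 and DESeq2 called 6 higher. The 6 at that unadjusted p were 85.7% of the tested, where 31% of all genes passed. DESeq2 called 19.1% of all genes. Ucp1 stayed below 1 CPM. Of the osteoclast markers, Calcr, Dcstamp, Ocstamp and Oscar stayed below 1 CPM in every library, and Nfatc1, the 1 tested, was not called by either tool. The part of these tissues in the members' values was not tested.

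**Figure D5:**
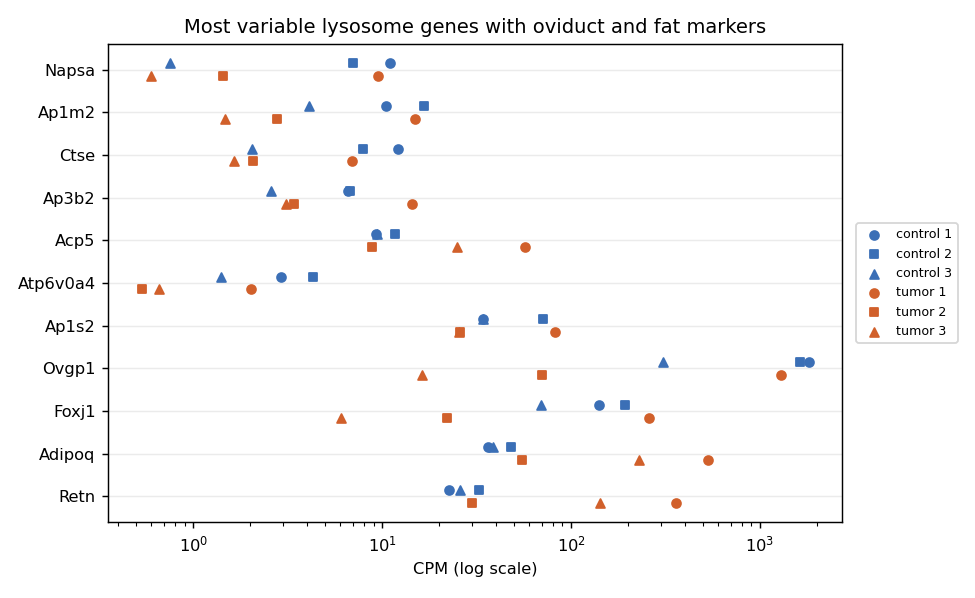
CPM on a log scale in each library for the 7 lysosome genes that varied most within groups and for the oviduct genes Ovgp1 and Foxj1 and the fat genes Adipoq and Retn; colors are groups and marker shapes are replicates. Napsa, Ap1m2 and Ctse have their 3 highest points in control replicates 1 and 2 and tumor replicate 1, as the oviduct genes do, and Acp5 has its highest points in tumor replicates 1 and 3, as the fat genes do.

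Markers of other ovarian cells differed beside the lysosome genes. Of 9 luteal markers 3 fell, Akr1c18, Ptgfr and Sfrp4, and none rose. Those that fell were 33.3% of the 9, where 3.91% of all genes fell. The luteal list summed to between 15778 and 16406 CPM in control and between 2752 and 9347 in tumor. Of 8 theca and stroma markers 3 fell and 2 rose, with sums from 4805 to 6156 CPM and from 2404 to 4648 in the same order. These calls were 62.5% of the 8, where 7.71% of all genes were called. Lum, Col1a1 and Col3a1 fell, and Ptch1 and Hhip rose. Cyp17a1, also part of this sum, held 14.3, 2669 and 22.1 CPM in control against 37.5, 1533 and 2273 in tumor. All of these but Lum and Hhip were named after their values were seen. Of 11 oocyte markers 6 rose, with sums from 355 to 470.4 CPM in control and from 556 to 706 in tumor. Those that rose were 54.5% of the 11, where 3.8% of all genes rose. None of 15 macrophage markers passed edgeR's test, 4 had an unadjusted p under 0.05, and DESeq2 called 2 lower and 1 higher. The 4 were 26.7% of the 15, where 31% of all genes passed at that level. The median log2 fold change of the macrophage markers was -0.29, and 73.3% of them lay below 0. For the tested lysosome members these values were -0.29 and 78.4%. The macrophage sum lay between 487 and 719 CPM in control and between 404 and 633 in tumor, and no marker of these lists was at 0 in all libraries. The luteal sum was lowest in tumor replicate 1, at 2752 CPM, where Gm2a held 180.3 and Lgmn 85.2 CPM. It was 9347 CPM in tumor replicate 3, where they held 169 and 78.3. Its largest parts there were Cyp11a1 and Hsd3b1, named after their values were seen. They held 428 and 1976 CPM in tumor replicate 1 and 2734 and 4563 in tumor replicate 3. The luteal markers that fell were low in every tumor library, below all controls. Akr1c18 held 2.96, 1.23 and 0.436 CPM in replicate order and Ptgfr 5.56, 1.76 and 2.67. Sfrp4 held 11.8, 26.8 and 21.2 CPM. The part of these cell types in the members' values was not tested.

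At the transcript level, 41 members had a mean of at least 500 counts and 2 or more transcripts with a share of at least 10%. The share of the leading transcript did not overlap between the groups for 11 of the 41, or 26.8%, where 20.8% of 4334 such genes did, which is near the background. Lamp2 was among the 11. Its leading transcript took 51.8%, 58.7% and 55.2% of the gene's estimated counts in the control libraries and 64.3%, 63.8% and 63.1% in the tumor libraries. Unscaled counts of that transcript were 3293, 3477 and 3718 in control against 4039, 3370 and 3408 in tumor. Those of the second transcript were 3006, 2402 and 2967 against 2200, 1862 and 1944. The tumor shares were all higher and close together, and 3 libraries against 3 cannot give an exact permutation p below 0.1. These shares are estimates from short single-end reads. For 6 of the 18 changed members (Ctsb, Ctsa, Glb1, Hexa, Atp6v0b and Ap1g2) the deposited span overlaps that of another gene, and without a stated strand setting shared reads cannot be told apart. Entpd4 and Entpd4b, which may be near copies, could likewise share reads, and neither was called.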

How the data were processed

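Total RNA of ovaries was read single-end on an MGIseq500 instrument, per the labels' protocols. The tools named, with no role, are HISAT2 2.0.4, RSEM 1.2.12 and Bowtie2 2.2.5, with build GRCm38.p6, per the submitters' processing notes. The authors deposited estimated counts (39.2% of values above 0 were not whole within 0.005), FPKM and TPM per gene, and estimated counts per transcript, per the file headers. The authors' deposited DESeq2 comparison gives p-values, q-values and log2 fold changes. Another 30 columns of library values were not used.

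Counts were rounded and filtered with filterByExpr of edgeR 4.0.16 (R 4.3.3). TMM factors ranged from 0.962 to 1.054. The groups were tested with edgeR's robust quasi-likelihood F test, group as the only term, and Benjamini-Hochberg adjustment over 15787 genes. The SE is the absolute log2 fold change over the square root of F. Alternatives were DESeq2 1.42.0, its size factors, no filter, limma-trend (limma 3.58.1) on log2 (FPKM + 1), the replicate number as a block, each library left out, and offsets from a loess of log2 CPM on effective length (known for 15246 tested genes). Only the main edgeR fit was tested on simulated data. It recovered 33% of 2-fold and 77% of 4-fold changes, with 11 false calls among 121. A gene that was not called may thus still differ. No libraries agreed within counting noise (chi-square per degree of freedom of at least 12.6).

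Members and lists were chosen with earlier results of these data known. Named genes were, per role, the 4 smallest p and the 2 highest FPKM, plus a fixed panel of well-known members, the 4 smallest p among other lysosome genes with Tfeb, Tfe3, Mitf, Grn and Gpnmb, and 2 per marker list; some genes of this rule are not reported here by name and stay in the counts. Neutrophil, granulosa, endothelial and lymphocyte markers were also measured: edgeR called 0 of 3, 1 of 8 (Esr2, higher), 0 of 5 and 0 of 5 tested genes, with 0, 3, 3 and 0 at an unadjusted p under 0.05 and 0, 1, 1 and 0 called by DESeq2. Over all genes edgeR called 7.71%, 31% had an unadjusted p under 0.05 and DESeq2 called 19.1%.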

Additional observations from a re-analysis of the deposited data

How the results depend on the processing

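Each of the 18 changed members kept its sign in all 12 alternatives, and all 18 passed DESeq2's test. The groups of all 18 did not overlap, so leaving out a library could hardly reverse a sign, and every alternative uses the same libraries. With the length correction only Gm2a and Lgmn passed, the other 16 had adjusted p between 0.0650 and 0.453, and 12 of the 18 had an unadjusted p under 0.05. The members that fell have a median effective length of 1957 bases, against 2797 over all tested genes. The count of 18 changed members was 2 with the length correction, 40 with DESeq2's test and between 0 and 33 with a library left out, and 16 or 17 with DESeq2's size factors, no filter or limma-trend. The count of 8 changed lysosome genes outside the KEGG term was 0, 15 and between 0 and 12 in the same order. With the replicate block both counts were 0, as over all genes, and 45 members and 17 of the others had an unadjusted p under 0.05. The share of all genes at that level was not counted with the block, and it was 31% without it. Deviations of same-numbered libraries correlated at 0.237, -0.212 and 0.529, so the numbers were not taken as pairs. The members' median of -0.29 was -0.16 with the length correction and lay between -0.32 and -0.19 with a library left out. Members with a promoter match numbered 20 for GTCACGTG and 10 for TCACGTGA.

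Among named genes, the sign changed for these, none of them called. With the length correction Ctsk had 0.1322, Ctss 0.1502 and Npc1 -0.1004. With limma-trend Ctss had 0.0405, Igf2r 0.0618 and Nfatc1 0.0351. With DESeq2's size factors and test Igf2r had 0.0081 and 0.008 and Nfatc1 0.0114 and 0.0118. Igf2r had 0.0026 with the replicate block. With a library left out, the values lay between -0.0505 and 0.4916 for Atp6v0d2, -0.3237 and 0.0371 for Ctsk, -0.2959 and 0.2861 for Ctss, -0.5198 and 0.0206 for Dnase2a, -0.0742 and 0.0839 for Igf2r, -0.2434 and 0.1418 for Nfatc1, -0.0589 and 0.0704 for Npc1 and -0.6231 and 1.9999 for S100a9. The cause of these changes was not tested.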
